A study of Mus musculus with 12 samples.

Results

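To examine what stabilized β-catenin does to the transcriptome of B-ALL cells edited at Ikzf1 and Ikzf3, 3 libraries carrying Cre-ERT2 (CRE_IKZF-KO) were compared with 3 carrying ERT2 alone (ERT2_IKZF-KO), 6 of the 12 RNA-seq libraries of the series. The members were taken from the sample titles and not from any measured value. All 12 libraries came from mouse pre-B cells of Ctnnb1Ex3fl/+ bone marrow, which carry loxP sites around exon 3 of 1 Ctnnb1 copy. Marrow was taken from mice aged 6 to 12 weeks, grown with IL-7 and transformed with the oncogene BCR-ABL1 to model B cell acute lymphoblastic leukemia (B-ALL), after which IL-7 was withdrawn. In the KO groups, Cas9 ribonucleoproteins with guides to Ikzf1 and Ikzf3 were electroporated and lines were grown from single cells. In the WT groups (ERT2_IKZF-WT and CRE_IKZF-WT, 3 libraries each), used here only to show where the KO cells differed, the guides were nontargeting. Every line then received a GFP vector carrying either ERT2 (an estrogen receptor domain that binds tamoxifen) or Cre-ERT2, a recombinase that 4-hydroxytamoxifen (4-OHT) activates, and GFP+ cells were sorted. No group held active Cre without the floxed exon. Effects of Cre or its vector therefore cannot be told apart from those of stabilized β-catenin. The harvest time, 1 day of 4-OHT, comes from a protocol sentence on chromatin work. A line grown from 1 cell carries whatever else that cell carried, which limits it as a model of the edit. Whether replicates were separate lines, cultures or days is not given in the labels, so the p-values measure only the spread between these samples, which may be technical.

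β-catenin is the intracellular messenger of Wnt signaling. Without a signal, a destruction complex of APC, AXIN, GSK3β and CK1α phosphorylates it and marks it for the proteasome. When it is stable it enters the nucleus, binds the TCF/LEF factors and activates target genes, among them feedback inhibitors such as Nkd1 and Axin2. Ikzf1 (Ikaros) and Ikzf3 (Aiolos) are zinc finger factors of lymphoid cells that work with the NuRD chromatin complex, and IKZF1 is a gene often deleted in human B-ALL.

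The sequences that define the experiment are the guide targets and the exon that Cre removes. Each guide target is written 5′ to 3′ on the strand the guide matches, with the PAM that Cas9 needs in capitals.
Ikzf1 guide target: ctggagtgtcactgactgggGGG
Ikzf3 guide target: attatgaagccggagcccatGGG
The Ikzf1 target lay at chr11:11707798-11707817 (GRCm38, minus strand of a plus-strand gene), in coding exon 3 of its first transcript, and was present in 5 annotated transcripts. The Ikzf3 target lay at chr11:98490523-98490542 (GRCm38, minus strand, as the gene), in coding exon 4 of its first transcript. Exon 3 of Ctnnb1 (chr9:120950522-120950749, GRCm38, plus strand, first transcript) is shown with the codons of serine 33, serine 37, threonine 41 and serine 45, the residues that CK1α and GSK3β phosphorylate, in capitals.
Ctnnb1 exon 3: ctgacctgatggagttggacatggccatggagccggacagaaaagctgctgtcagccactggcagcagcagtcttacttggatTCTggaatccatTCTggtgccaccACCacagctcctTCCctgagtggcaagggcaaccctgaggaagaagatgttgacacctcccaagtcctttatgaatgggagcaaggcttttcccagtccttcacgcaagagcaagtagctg
The exon is 228 bases long, which is 76 codons with remainder 0, so its removal keeps the reading frame and takes out all 4 marked codons. Guide sequences are those of the study, and transcript sequences, gene positions and transcript positions are those of GENCODE vM21, by the transcript it numbers first for each gene.

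Values are the authors' normalized log2 expression for 12151 genes, and a change is the mean of the 3 Cre-ERT2 KO libraries minus that of the 3 ERT2 KO libraries. Sequencing depth is unknown because the table holds no counts, so replicates alone give the precision of a value. Weakly expressed genes may be compressed on this scale, which would understate their changes. The library medians ran from 9.06 to 9.11 over the series. Among 6075 genes above the median gene, the median SD between replicates was 0.042 in Cre-ERT2 KO and 0.031 in ERT2 KO libraries. Cre-ERT2 KO replicate 3 stood somewhat apart, since it differed from the other two by a robust SD of 0.054 to 0.056, against 0.043 between those 2. Among the 6 KO libraries, 54.8% of the variance lay on the first principal component, which parted the ERT2 from the Cre-ERT2 libraries, and 18.3% on the second, which spread the Cre-ERT2 replicates. All 12 pre-B cell markers were in the table, including Cd79a, Vpreb1, Igll1 and Ebf1, and each lay above 62.6% of genes or more in KO libraries. Of 46 markers of myeloid, T, NK, erythroid and stromal cells, 9 were in the table and the other 37 were not analysed here.

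The edited genes and the floxed gene were read first. Ikzf1 (ENSMUSG00000018654, chr11:11685003-11772926) stood at 14.75, 14.74 and 14.76 in ERT2 KO and 14.59, 14.56 and 14.61 in Cre-ERT2 KO libraries, and its change of -0.17 was called (SE 0.018, limma adjusted p 6.33e-05). The libraries labelled KO thus hold abundant Ikzf1 transcript, above the 13.74 of ERT2 WT libraries. A gene-level value does not show a frameshift, and the study examined loss of both proteins by western blot. Ikzf3 (ENSMUSG00000018168, chr11:98464902-98546031) stood at 10.97, 11.00 and 10.98 and 11.34, 11.13 and 11.19 and rose by 0.23 (SE 0.043, limma adjusted p 0.00345). Ctnnb1 (ENSMUSG00000006932, chr9:120929216-120960507) stood at 12.57, 12.66 and 12.62 and 12.74, 12.73 and 12.78, without overlap, and rose by 0.13 (SE 0.025, limma adjusted p 0.00407). A gene-level table does not show whether exon 3 was removed.

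Upon Cre activation in KO cells, the Wnt feedback inhibitor Nkd1, the receptors Ccr2 and Cd28 and the pre-B cell receptor kinase Syk rose, while Myc and members of the amino acid response such as Asns fell. In all, 1531 of 12151 genes were called at a limma adjusted p under 0.05 (12.6%), 883 higher (7.27%) and 648 lower (5.33%) in Cre-ERT2 KO libraries. The groups of 3 did not overlap in 3440 genes (28.3%). Most changes were small. The median absolute change of called genes was 0.14, and 307 higher and 100 lower genes changed by at least 0.2. The larger changes were mostly rises, with 58 higher and 4 lower genes at 0.5 or more and 14 against 1 at 1 or more. Leaving out any 1 KO library gave 1050 to 1313 called genes, the latter without Cre-ERT2 KO replicate 3. Calls of named genes that were lost when any 1 library was left out are termed borderline below. With each library centered on its median, 774 genes were higher and 766 lower, so the excess of small rises depends on the scaling. In the WT cells, 1443 genes were called (11.9%) for the same comparison.

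**Figure D1:**
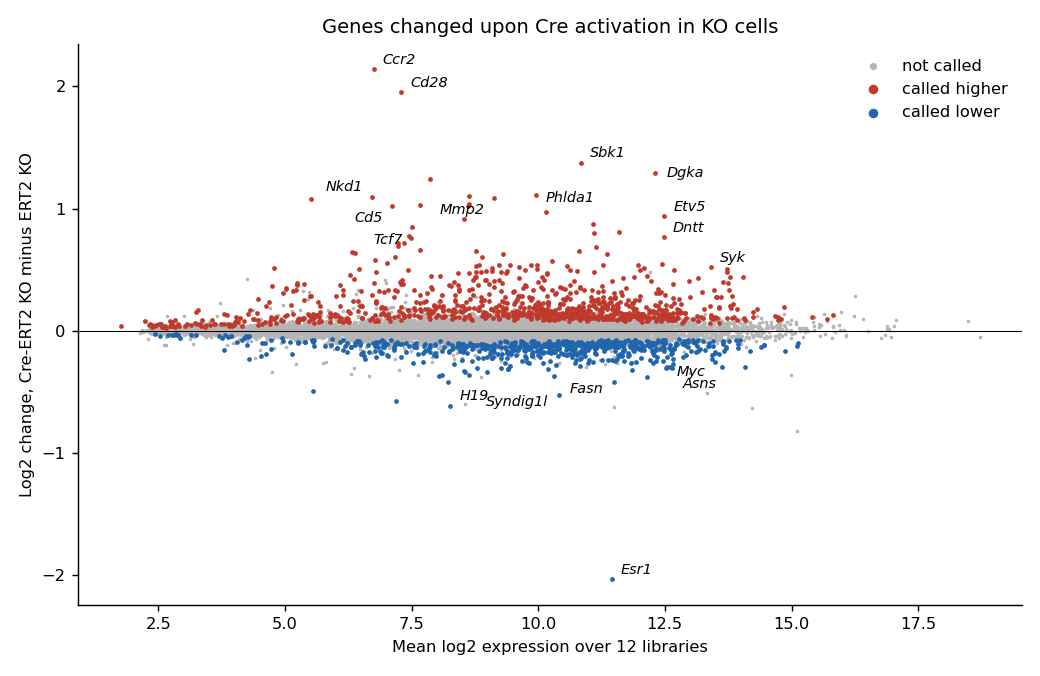
Change of each of the 12151 genes upon Cre activation in KO cells (vertical axis, difference of log2 values, Cre-ERT2 KO minus ERT2 KO) against its mean log2 value over the 12 libraries (horizontal axis), with called genes in color and selected genes named. Ccr2 at 2.14 and Esr1 at -2.04 are the extremes, and most called genes lie within 0.2 of 0.

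The 2 steepest rises were in surface receptors of T cells and monocytes. Ccr2 (chr9:124101950-124113557), the receptor of the monocyte chemokine CCL2, stood at 6.17, 6.19 and 6.29 in ERT2 KO and 8.29, 8.31 and 8.46 in Cre-ERT2 KO libraries. Cd28 (chr1:60716800-60773359), a costimulatory receptor of T cells, stood at 6.90, 6.92 and 6.88 and 8.81, 8.83 and 8.92. The groups were far apart for both, and the rises were 2.14 (SE 0.045, 4.4-fold, limma adjusted p 1.03e-11) and 1.96 (SE 0.032, 3.88-fold, limma adjusted p 1.13e-12). Both started below the median gene of 9.08. The other 2 of the 5 largest rises at or below the median gene besides Nkd1 were Grb7, a signaling adaptor, at 8.05, 8.03 and 8.06 and 9.25, 9.28 and 9.33 (a rise of 1.24), and Pdzd2, at 7.65, 7.70 and 7.77 and 8.86, 8.81 and 8.76 (a rise of 1.11). For Grb7 the difference from WT cells was 0.86 (limma adjusted p 2.04e-06), and for Pdzd2 it was not called. Cd5, a T cell and B-1 cell surface protein that damps antigen receptor signals, stood at 6.77, 6.78 and 6.83 and 7.76, 7.80 and 7.88 and rose by 1.02. The T cell kinases Zap70 and Lck rose by 0.41 and 0.33. These 3 belong to the list of markers of other cell types. Of the 9 in the table, 6 were called higher and 1 lower, 77.8% against 12.6% of all genes, with a median change of 0.21. In WT cells 5 of the 9 were called higher and none lower, against 720 and 723 of all 12151 genes. Their median change in WT cells was 0.25. Lck, Zap70 and Klrd1 rose less in KO than in WT cells by a called difference, and for Cd5 and Lyz2 the called difference was positive. The summed unlogged level of the 9 was 2051 to 2066 in ERT2 KO and 2491 to 2537 in Cre-ERT2 KO libraries. Pecam1 had the highest values of the 9, at 9.74, 9.75 and 9.74 and 10.13, 10.09 and 10.09, so it weighs most in this sum. The other 4 called were Pecam1, an adhesion molecule of endothelium and leukocytes (0.36), the myeloid gene Lyz2 (0.21) and the NK genes Klrd1 (0.09, at values near 5) and Nkg7 (-0.13). The myeloid gene Itgam and the NK gene Klrb1c, both at very low values, were not called. Whether other cells had a part in these rises was not tested. In bulk RNA more cells of a type and more RNA per cell cannot be told apart.

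Among genes above the median, the 15 largest rises ran from 0.57 to 1.38. Sbk1, which encodes a serine/threonine kinase, stood at 9.77, 9.77 and 9.80 and 11.19, 11.15 and 11.13, a rise of 1.38 (SE 0.022, limma adjusted p 1.13e-12). Dgka, the diacylglycerol kinase α that removes the second messenger diacylglycerol, stood at 11.56, 11.52 and 11.59 and 12.83, 12.83 and 12.87, a rise of 1.29 (SE 0.025, limma adjusted p 6.17e-12). It was the only called gene of the 6 diacylglycerol kinases in the table, 16.7% against 12.6% of all genes. Without ERT2 KO replicate 3, 2 of the 6 were called. Mmp2 (chr8:92827291-92853420), a secreted collagenase, stood at 10.97, 10.96 and 11.01 and 12.07, 12.09 and 12.03 and rose by 1.09. In all 3 genes every Cre-ERT2 KO library lay more than 1 unit above every ERT2 KO library. Kbtbd11 rose by 0.98, Abhd2 by 0.81, Cobll1 by 0.80, Epha2, an ephrin receptor, by 0.69, and Aplp2, a relative of the amyloid precursor protein, by 0.63. Dntt, the terminal transferase that adds untemplated bases to rearranging antigen receptor genes, was nearly invariant within groups, at 11.77, 11.74 and 11.81 and 12.54, 12.54 and 12.54, and rose by 0.77 (SE 0.021, limma adjusted p 1.46e-10). The T cell receptor γ constant genes Tcrg-C2 and Tcrg-C1 rose by 0.88 and 0.43. Their sequences are close to each other, so the split of reads between them is uncertain.

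**Figure D2:**
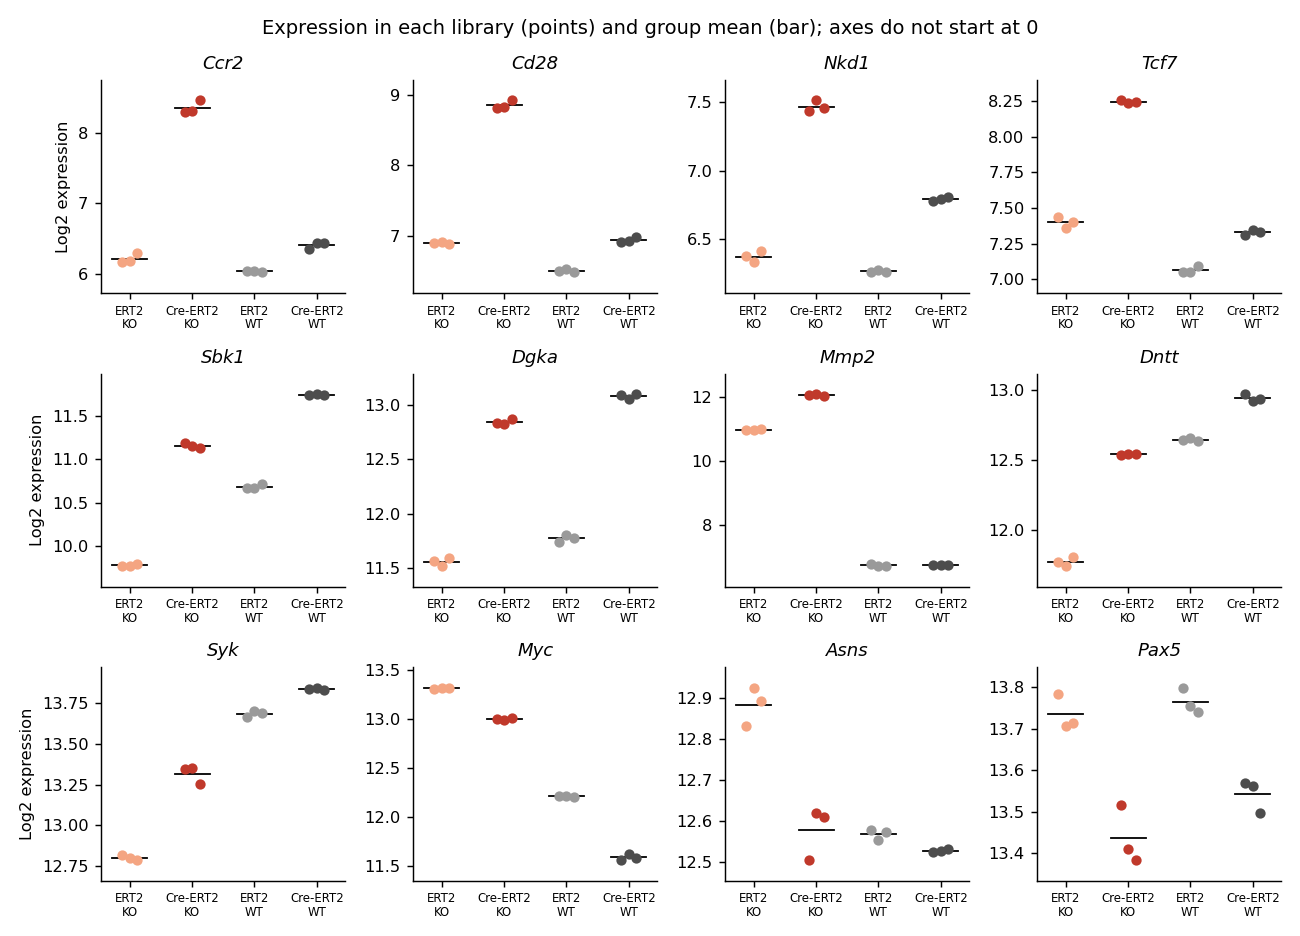
Log2 expression of 12 genes in each of the 12 libraries, with the 3 ERT2 and 3 Cre-ERT2 libraries of KO cells in color, those of WT cells in gray, and a bar at each group mean. In all 12 panels the KO groups do not overlap, and among them Ccr2 and Cd28 show the widest gaps between KO and WT responses, with 1.76 and 1.52 between the changes.

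Most Wnt feedback genes in the table rose. Of 26 genes on the list 11 were in the table. Of these, 7 were called higher and none lower, against 7.27% and 5.33% of all genes. The median change was 0.13 against 0.00 over all genes. Without Cre-ERT2 KO replicate 3, 6 were called higher. The gene lists were chosen with earlier results of these data known. Shares called in a list, here and elsewhere, therefore describe the list and do not test it. Nkd1 (chr8:88521354-88594884), which binds Dishevelled and limits Wnt signaling, stood at 6.38, 6.34 and 6.41 in ERT2 KO and 7.44, 7.52 and 7.46 in Cre-ERT2 KO libraries. It rose by 1.10 (SE 0.027, limma adjusted p 5.42e-11), the largest change of the list, and its paralog Nkd2, at 9.40, 9.45 and 9.48 and 9.80, 9.82 and 9.77, by 0.35. Kremen1, a receptor through which DKK proteins remove Wnt coreceptors, stood at 9.03, 8.96 and 8.99 and 9.59, 9.55 and 9.45 and rose by 0.54. Tnfrsf19 (TROY), a receptor of the tumor necrosis factor family, stood at 9.78, 9.86 and 9.86 and 10.36, 10.32 and 10.32 and rose by 0.50. The groups were apart in each of these 4 genes. Smaller rises were seen for Axin2, the inducible scaffold of the destruction complex (0.14), for Znrf3, a ubiquitin ligase that clears Frizzled receptors (0.13), and for Lgr5, an R-spondin receptor (0.10, borderline). Axin2 values were very low, at 5.01, 5.01 and 5.01 and 5.15, 5.17 and 5.14. The 4 genes not called were Ccnd1 (0.05), Cd44 (0.04), Bambi (0.02) and Dact3 (-0.01).

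Nkd1 and Tnfrsf19 rose further in KO than in WT cells, and Axin2 rose less. The change of Nkd1 in WT cells was 0.53, a difference of 0.57 (SE 0.038, limma adjusted p 2.74e-06), and that of Tnfrsf19 was 0.23, a difference of 0.27 (limma adjusted p 0.00325). Axin2 rose by 0.29 in WT cells, a difference of -0.15 (limma adjusted p 0.00284). For Znrf3 (-0.01 in WT cells) the difference was 0.14 (limma adjusted p 0.0365, borderline). For Kremen1 (0.69) and Nkd2 (0.28) in WT cells the difference was not called (limma adjusted p 0.223 and 0.6).

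Of the nuclear partners of β-catenin, 8 of 19 TCF/LEF factors and cofactors in the table were called higher and 1 lower, against 7.27% and 5.33% of all genes, with a median change of 0.05. Without Cre-ERT2 KO replicate 2, 5 were called higher. Tcf7 (chr11:52252371-52283014), the TCF-1 factor of T cell development, stood at 7.43, 7.36 and 7.40 and 8.25, 8.23 and 8.24, with no overlap, and rose by 0.85 (SE 0.027, limma adjusted p 4.52e-10). The rise in WT cells was 0.26, and the difference of 0.58 was called (limma adjusted p 2.04e-06). Lef1, already at 12.16, 12.15 and 12.15 in ERT2 KO libraries, rose by 0.16, and Tcf7l1, a mostly repressive member, fell by 0.12 (limma adjusted p 0.0123, and 0.0524 without ERT2 KO replicate 1). Tcf7l2, at 0.05, was not called. The Groucho corepressors Tle3 and Tle4 rose by 0.17 and 0.15, and, as borderline calls, the β-catenin inhibitor Ctnnbip1 by 0.16 and the coactivator Ep300 by 0.10. Tle1, Tle6, Bcl9, Pygo2, Crebbp, Med12, Cdc73, Ctbp1 and Hhex were not called, with changes from -0.04 to 0.07. The rises of Aes (0.13) and Ctbp2 (0.09, borderline) were at low values. With the 6 KO libraries fitted alone, 5 of the 19 were called, all higher.

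Of 20 genes of the destruction complex and its ubiquitin ligase in the table, 5 were called higher and none lower. The share called higher was 25%, against 7.27% of all genes, and 1 gene was lower without Cre-ERT2 KO replicate 1 or 2. The 5 were Ctnnb1 itself, the kinases Gsk3b (0.13) and Csnk1d (0.13), the ligase subunit Skp1a (0.11) and the tankyrase Tnks (0.11, borderline). Among 14 Wnt ligands and receptors with values, 2 were called, Lgr5 and the Frizzled receptor Fzd5 (-0.10). This is 14.3%, near the 12.6% of all genes. Neither call held without ERT2 KO replicate 2, Cre-ERT2 KO replicate 2 or Cre-ERT2 KO replicate 3.

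**Figure D3:**
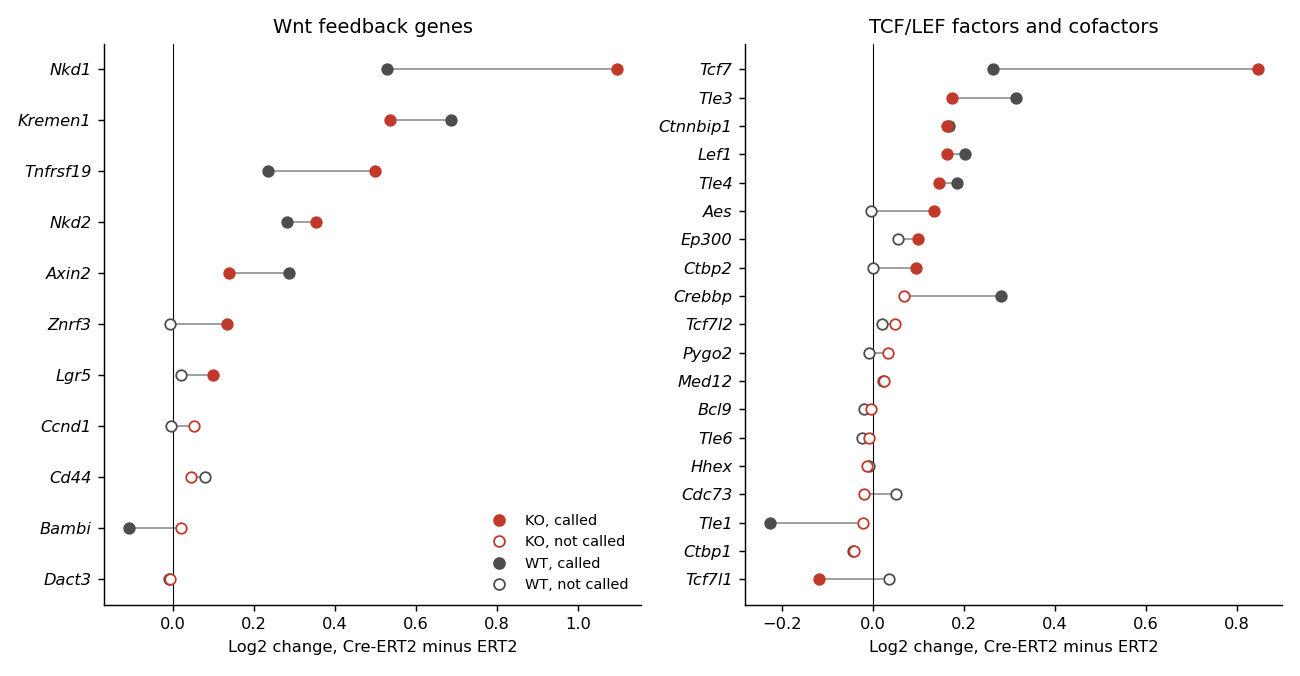
Changes upon Cre activation (log2 difference, horizontal axis) of all Wnt feedback genes and TCF/LEF factors and cofactors in the table, in KO cells (filled where called) and WT cells (gray, filled where called), joined by a line for each gene. Nkd1, Tcf7 and Tnfrsf19 lie furthest to the right of their WT value, and Axin2 lies to the left of its WT value.

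Promoter windows of 300 bases, from 250 before to 50 after an annotated start, were searched on both strands for the TCF/LEF core CTTTGA, its longer form CTTTGAT and the Ikaros core GGGAA, of which the first lies within the second. RefSeq windows on GRCm38.p6 matched 8572 genes by symbol. CTTTGA was present for 17.5% of genes called higher, 15.6% of those called lower and 14.2% of all. The longer form was present for 2.62%, 3.99% and 2.94%, and GGGAA for 70.2%, 69.1% and 68.8%. The shares were close, and a match does not show that a factor binds there. Shown are windows of the 3 feedback and TCF/LEF genes with the largest rises that had an entry, with matches to either core in capitals.
Nkd1, chr8:88527383-88527682, plus strand: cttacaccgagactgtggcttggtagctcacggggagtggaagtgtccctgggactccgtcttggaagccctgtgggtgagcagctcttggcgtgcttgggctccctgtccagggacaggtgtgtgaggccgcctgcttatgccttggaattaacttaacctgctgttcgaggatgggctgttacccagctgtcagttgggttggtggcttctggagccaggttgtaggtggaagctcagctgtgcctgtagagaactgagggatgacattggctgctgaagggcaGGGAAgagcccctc
Tcf7, chr11:52282546-52282845, minus strand: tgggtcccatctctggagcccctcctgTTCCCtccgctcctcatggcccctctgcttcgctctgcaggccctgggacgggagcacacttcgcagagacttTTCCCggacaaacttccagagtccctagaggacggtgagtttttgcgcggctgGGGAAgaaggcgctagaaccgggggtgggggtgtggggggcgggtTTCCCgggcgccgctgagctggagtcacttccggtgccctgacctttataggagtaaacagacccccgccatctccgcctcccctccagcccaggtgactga
Tnfrsf19, chr14:61037938-61038237, minus strand: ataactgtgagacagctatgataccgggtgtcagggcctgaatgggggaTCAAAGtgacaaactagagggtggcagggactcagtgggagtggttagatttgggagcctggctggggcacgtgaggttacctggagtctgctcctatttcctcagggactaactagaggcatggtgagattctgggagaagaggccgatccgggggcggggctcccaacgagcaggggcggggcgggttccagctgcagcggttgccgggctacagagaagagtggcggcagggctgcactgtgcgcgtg
The Nkd1 window held 1 Ikaros core and 0 TCF/LEF cores, this Tcf7 window 4 and 0, and this Tnfrsf19 window 0 and 1. Tcf7 and Tnfrsf19 each had 1 other window, which held 1 Ikaros core and 0 TCF/LEF cores. Kremen1 had no entry. The windows of Nkd2, Tle3 and Axin2 held 0 TCF/LEF cores, whereas 1 of 4 Lef1 windows held 2.

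Myc fell in KO cells, but by less than in WT cells. Myc (ENSMUSG00000022346, chr15:61985391-61990374), the growth regulator, stood at 13.30, 13.31 and 13.31 in ERT2 KO and 13.00, 12.99 and 13.01 in Cre-ERT2 KO libraries with no overlap, and replicates of a group nearly coincided. Its change was -0.31 (SE 0.019, limma adjusted p 3.11e-07). An exact 2-sided permutation test over the 6 libraries gave p = 0.1, the smallest that 3 against 3 allow. In WT libraries Myc stood at 12.22, 12.22 and 12.20 (ERT2) and 11.56, 11.62 and 11.58 (Cre-ERT2), a change of -0.62, and the difference of 0.31 was called (SE 0.027, limma adjusted p 2.70e-05). Myc in Cre-ERT2 KO libraries thus stayed above its level in ERT2 WT libraries. Of 13 genes of the Myc network in the table, Mxd4, a repressor that competes for the partner Max, rose by 0.19, and Mxi1 fell by 0.13 (borderline). Mycn (0.14), Max (0.04), Mga (0.13), Mnt (-0.09), Mxd1 (0.00), Mxd3 (0.05), Mlx (0.07), Mlxip (0.01), Zbtb17 (0.02) and the noncoding gene Pvt1 (-0.09) were not called.

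Genes that respond to Myc in growth and ribosome synthesis fell in part. Of 55 such genes, all in the table, 15 were called lower (27.3%, against 5.33% of all genes) and none higher. The median change was -0.06, and 50 of the 55 lay below 0. Without ERT2 KO replicate 1, 9 were called lower. The largest falls were those of Shmt2 (fell by 0.21) and Shmt1 (fell by 0.20), which supply 1-carbon units from serine, and of Srm (fell by 0.17) and Odc1 (fell by 0.14), which make polyamines. C1qbp fell by 0.13 and the folate carrier Slc19a1 by 0.14 (borderline). In WT cells 45 of the 55 were called lower with a median of -0.15, against 723 of all 12151 genes. The difference itself was called in 5, all positive, against 4.53% of all genes. Among them were Srm at 0.21 (limma adjusted p 0.0202, borderline) and Pes1, which was not lowered in KO cells (0.07, not called).

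Among Ikaros family members and NuRD subunits, 5 of 18 were called, 27.8% against 12.6% of all genes. Ikzf3 rose, and Ikzf1, Gatad2a (-0.13), Mbd2 (-0.11) and Mta1 (-0.10) were lower, the last 3 as borderline calls. Leaving out 1 KO library left between 2 and 4 called, of which 1 or 2 were lower. The catalytic subunits Chd4 (-0.01), Hdac1 (0.03) and Hdac2 were not called, nor were Mbd3 (-0.03), Mta2 (0.07), Mta3 (-0.04), Gatad2b (0.12), Cdk2ap1 (-0.04), Rbbp4 (0.06) and Rbbp7 (0.03). Chd3 (-0.12), Ikzf4 (0.08) and Ikzf5 (0.11) were not called.

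B-lineage transcription factors moved in both directions, 8 of 28 higher and 7 lower (28.6% and 25.0%, against 7.27% and 5.33% of all genes). Prdm1, which encodes Blimp-1 and drives plasma cell differentiation, stood at 5.99, 5.98 and 5.98 and 6.64, 6.64 and 6.60, low in both groups, and rose by 0.64. Irf4, another factor of plasma and pre-B cells, stood at 11.53, 11.49 and 11.49 and 12.01, 12.02 and 12.03 and rose by 0.51 (SE 0.027, limma adjusted p 5.71e-08). The rise in WT cells was 0.26, a called difference of 0.25. Pax5, which keeps B cell identity, stood at 13.78, 13.71 and 13.71 and 13.52, 13.41 and 13.38 and fell by 0.30 (SE 0.035, limma adjusted p 0.000102). Klf2, a quiescence factor, fell by 0.42, whereas Myb and Runx1 rose by 0.40 and 0.31. For Prdm1, Pax5, Klf2, Myb and Runx1 the difference from WT cells was not called. Of 11 plasma cell and mature B genes with values, 3 were higher and 2 lower, 45.5% against 12.6% of all genes. Slamf7 rose by 0.63 and Sdc1 fell by 0.11 (borderline). The receptors for B cell survival ligands differed in sign, with the BAFF receptor Tnfrsf13c at -0.13 and Tnfrsf13b (TACI) at 0.12, and Ighd rose by 0.19 (all 3 borderline). Without Cre-ERT2 KO replicate 3, 2 of the 11 were called, and without any 1 other KO library apart from ERT2 KO replicate 2, 3 were.

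Genes of the pre-B cell receptor and the kinase cascade below it moved in both directions. Of 26 receptor and surface genes 6 were higher and 4 lower, 38.5% against 12.6% of all genes. Only 2 were lower without ERT2 KO replicate 3 or Cre-ERT2 KO replicate 1. The surrogate light chain gene Vpreb2 fell by 0.22 and the signaling chain Cd79b by 0.18, while Cd93 (0.44), Il2ra, the CD25 marker of pre-B cells (0.40), Ptprc (0.25) and Spn (0.21) rose. Of 26 signaling genes 6 were higher and 6 lower, 46.2% against 12.6% of all genes. Only 3 were lower without ERT2 KO replicate 1 or Cre-ERT2 KO replicate 2. Syk, the kinase that couples the receptor to its cascade, stood at 12.81, 12.80 and 12.79 and 13.35, 13.35 and 13.26 and rose by 0.52 (SE 0.025, limma adjusted p 3.00e-08). Prkcb stood at 12.18, 12.11 and 12.20 and 12.67, 12.66 and 12.65 and rose by 0.50, and Plcg2, which makes the diacylglycerol that activates it, at 12.98, 13.02 and 13.05 and 13.42, 13.44 and 13.47, rose by 0.43. In these 3 every Cre-ERT2 KO value lay above every ERT2 KO value. The inhibitory phosphatase Inpp5d (SHIP1) rose by 0.20 and Rasgrp1, a diacylglycerol-responsive Ras activator, by 0.19, while Vav2 fell by 0.18. Syk rose by 0.15 and Prkcb by 0.29 in WT cells, and both differences were called (0.37, limma adjusted p 6.07e-05, and 0.21, limma adjusted p 0.0172, and 0.0502 without ERT2 WT replicate 1). Rasgrp1 went the other way in WT cells, at -0.24, with a called difference of 0.43 (limma adjusted p 0.000642).

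Of 34 genes of ERK feedback and early response, 7 were higher and 7 lower, 20.6% each way against 7.27% and 5.33% of all genes. Phlda1 stood at 10.02, 9.97 and 10.00 and 11.06, 11.14 and 11.13 and rose by 1.11, and the ETS factor Etv5, a readout of ERK activity, stood at 12.66, 12.67 and 12.74 and 13.64, 13.61 and 13.63 and rose by 0.94. The ERK phosphatase Dusp4 rose by 0.48, whereas Dusp5, another ERK phosphatase, fell by 0.26 and the AP-1 subunit Jund by 0.32. The list therefore had no single direction, with a median of 0.00. Phlda1 (0.54) and Etv5 (0.19) rose further in KO than in WT cells by a called difference.

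Of the 28 lists examined, the unfolded protein and amino acid responses held the most genes that fell. Of these 45 genes 19 were called lower (42.2%) and 5 higher (11.1%), against 5.33% and 7.27% of all genes, and leaving out any 1 library left 14 to 18 lower. The median over all 45 was -0.01, since many members lay close to 0. Asns, the asparagine synthetase induced when amino acids are short, stood at 12.83, 12.92 and 12.89 and 12.50, 12.62 and 12.61 and fell by 0.30 (SE 0.031, limma adjusted p 3.06e-05). Cth, which makes cysteine, stood at 9.93, 9.95 and 9.92 and 9.55, 9.73 and 9.73 and fell by 0.27. Mthfd2, a mitochondrial folate enzyme, stood at 12.50, 12.53 and 12.50 and 12.25, 12.25 and 12.31 and fell by 0.24. The groups were apart in all 3. The pseudokinase Trib3 fell by 0.26, the large neutral amino acid transporter Slc7a5 by 0.23, and Slc1a5, a glutamine transporter outside the list, by 0.25. The remaining called members of the list fell by less, down to 0.10. The lipoprotein receptor Vldlr was the largest rise of the list, at 0.65 (SE 0.14), with a wide standard error. In WT cells 10 of the 45 were called lower, against 723 of all 12151 genes. Over the 45 genes the difference was called in 13, against 4.53% of all genes, and was positive in 7 and negative in 6. The difference was called for 6 of the 19, among them Asns (-0.26, limma adjusted p 0.00447), Mthfd2 (-0.16, limma adjusted p 0.0102) and Cth (-0.26, limma adjusted p 0.0342, borderline).

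**Figure D4:**
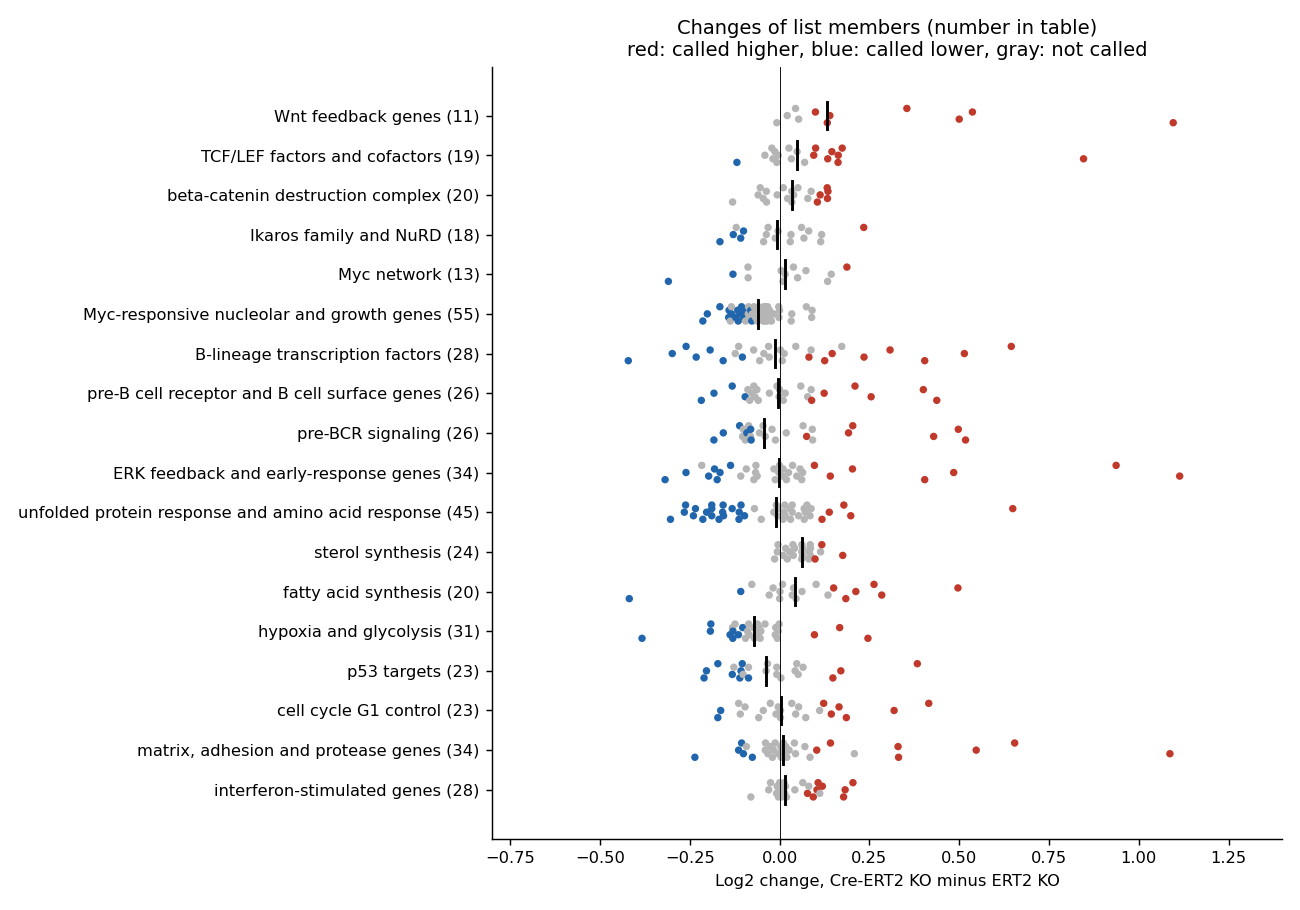
Change of every member in the table (log2 difference, Cre-ERT2 KO minus ERT2 KO, horizontal axis) for 18 gene lists, with called genes in color, uncalled genes in gray and a black tick at each list's median. The Wnt feedback genes lie to the right of 0, the Myc-responsive genes to its left, and most other lists spread to both sides.

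Of 20 fatty acid genes 6 were higher and 2 lower, but the synthase itself, Fasn, stood at 11.40, 11.65 and 11.53 and 11.05, 11.17 and 11.10 and fell by 0.42 (SE 0.054, limma adjusted p 0.000215). The acyl-CoA synthetases Acsl4 and Acsl1, which activate fatty acids, rose by 0.50 and 0.26, the desaturase Scd1 by 0.18, and the lipogenic factor Srebf1 by 0.21 (borderline). Gpam, which starts glycerolipid synthesis, rose by 0.28 (borderline). The share called was 40% of the list, against 12.6% of all genes. Without ERT2 KO replicate 1, 5 of the 20 were called, 1 of them lower, and 1 was lower without Cre-ERT2 KO replicate 2. Of 24 sterol synthesis genes 3 were higher and none lower, Nsdhl (0.18), Acat2 (0.12) and Dhcr7 (0.10), the latter 2 borderline. This is 12.5%, level with the 12.6% of all genes, and the list had a median of 0.06. Only 1 was called without ERT2 KO replicate 2 or 3, or without Cre-ERT2 KO replicate 1 or 2. In WT cells 7 of the list were called lower and none higher, against 723 and 720 of all 12151 genes, with a median of -0.09. The difference was called in 8 of the 24, all positive, against 4.53% of all genes. Of 31 hypoxia and glycolysis genes 8 were lower and 3 higher, with a median of -0.07. Ero1l, the oxidase that serves disulfide formation in the endoplasmic reticulum, stood at 13.15, 13.14 and 13.30 and 12.76, 12.74 and 12.94 and fell by 0.38, the hexokinase Hk2 fell by 0.19 and the oxygen sensor Egln3 by 0.19, while Pfkfb3 rose by 0.25. The hexokinase Hk1 fell by 0.14, and the histone demethylase Kdm3a rose by 0.17, both as borderline calls. The share called was 35.5%, against 12.6% of all genes. Without ERT2 KO replicate 3 or Cre-ERT2 KO replicate 1, 5 of the 31 were called, and without replicate 2 of either group, 6, with 3 to 5 of them lower.

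Among cell cycle genes, the G1 list had 6 of 23 higher and 2 lower, 34.8% against 12.6% of all genes. Cdkn2a, the locus of p16 and p19ARF, stood at 9.03, 9.02 and 8.99 and 9.45, 9.50 and 9.34 and rose by 0.42 (SE 0.045, limma adjusted p 5.13e-05). Ccnd2, a D-type cyclin, stood at 12.65, 12.59 and 12.62 and 12.90, 12.93 and 12.99 and rose by 0.32, Cdk6 rose by 0.17 and the pocket protein gene Rbl1 by 0.19, and Ccnd3 fell by 0.16. Cdkn2a and Ccnd2 fell in WT cells (-0.20 and -0.15), and the differences were called (0.61, limma adjusted p 0.000105, and 0.47, limma adjusted p 1.88e-05). Of 41 DNA replication genes 1 was higher and 5 lower, led by the licensing factor Cdt1 (fell by 0.19), a share of 14.6% that is near the 12.6% of all genes. The initiation factor Mcm10 (fell by 0.13), the helicase subunit Mcm3 (fell by 0.09), the loading factor Cdc6 (fell by 0.11) and the ribonucleotide reductase subunit Rrm2 (fell by 0.13) were lower, and the other subunit, Rrm1 (0.09), higher. Of these, Mcm3, Cdc6 and Rrm2 were borderline. Without ERT2 KO replicate 2 only 3 were called, and the lower count was 2 or 3 without ERT2 KO replicate 1 or 2 or Cre-ERT2 KO replicate 3. Of 35 mitosis genes 2 were higher (Kif20b, 0.23, and Top2a, 0.11) and 1 lower (Cenpa, -0.13), each borderline. This is 8.57%, under the 12.6% of all genes. None of the 35 were called without ERT2 KO replicate 1 or 2, and 1 without Cre-ERT2 KO replicate 3. Of 23 p53 targets 8 were lower and 3 higher, 47.8% against 12.6% of all genes. Among the lower, the BH3-only killer Bbc3 fell by 0.21, Zmat3 by 0.20 and Cdkn1a, which encodes p21, by 0.17. The 3 higher were Gadd45a (0.38), the stress regulator Sesn1 (0.17) and the antiproliferative Btg2 (0.15, borderline). Without ERT2 KO replicate 2, 5 of the 23 were called, and without ERT2 KO replicate 3 or Cre-ERT2 KO replicate 2, 7, of which 3, 4 and 5 were lower. In the BCL2 family 2 of 15 genes were higher and 3 lower, 33.3% against 12.6% of all genes. The survival gene Bcl2 stood at 9.43, 9.38 and 9.41 and 9.84, 9.85 and 9.94 and rose by 0.47. The killer Bid fell by 0.14, and Bbc3 fell as given above. The rise of Mcl1 (0.08) and the fall of Bax (-0.13) were borderline. Of these 15 genes 3 were called without ERT2 KO replicate 3 or Cre-ERT2 KO replicate 2.

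In the matrix and adhesion list 7 of 34 genes were higher and 5 lower, 35.3% against 12.6% of all genes. Without ERT2 KO replicate 3, 7 were called. Between 1 and 3 were lower without any 1 KO library other than Cre-ERT2 KO replicate 3. Besides Mmp2, the scavenger receptor Megf10 (0.65), the integrin Itga4 (0.55), the membrane protease Mmp15 (0.33) and the aminopeptidase Enpep, the BP-1 antigen of pre-B cells (0.33), rose, and the proteoglycan Sdc4 fell by 0.24. Of 17 migration and Notch genes 5 were higher and 3 lower, 47.1% against 12.6% of all genes. Cxcr4, which holds pre-B cells in bone marrow, stood at 11.50, 11.48 and 11.49 and 12.02, 12.03 and 12.04 and rose by 0.54 (SE 0.022, limma adjusted p 6.20e-09), while the sphingosine receptors S1pr4 and S1pr1, which guide exit to blood, fell by 0.18 and 0.16. The chemokine receptor Ccr7 rose by 0.20, and the Notch effector Rbpj by 0.13 (borderline). Without ERT2 KO replicate 3 or Cre-ERT2 KO replicate 2, 5 of the 17 were called, and 3 were higher without any 1 KO library other than Cre-ERT2 KO replicate 3. Of 28 interferon-stimulated genes 8 were higher and none lower, 28.6% against 12.6% of all genes, with a median of 0.02. Iigp1 (0.20), Igtp (0.18) and Stat2 (0.18) were ahead, with Gbp2 (0.12), Parp9 (0.11) and Irf9 (0.10) next as borderline calls. Between 4 and 5 of the 28 were called without ERT2 KO replicate 1 or 3 or without Cre-ERT2 KO replicate 2 or 3. Of 21 MHC and antigen presentation genes only Cd74 (0.12) was higher and H2-Ab1 (-0.12) lower. This is 9.52%, under the 12.6% of all genes, and neither was called without ERT2 KO replicate 2.

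Esr1 apart, the largest falls were smaller than the largest rises. Esr1 stood at 12.28, 12.30 and 12.28 and 10.28, 10.25 and 10.21, a change of -2.04. Both vectors encode an estrogen receptor domain, so the endogenous gene and the vector cannot be told apart. Besides Esr1, Fasn, Ero1l, Jund, Myc, Pax5 and Asns, the 15 largest falls above the median gene included Syndig1l, which stood at 10.57, 10.59 and 10.67 and 10.06, 10.08 and 10.11 and fell by 0.53, the lysosomal thiol reductase Ifi30 (fell by 0.32), Txnrd3 (fell by 0.30), Gfod1 (fell by 0.31), Sap18, a corepressor subunit (fell by 0.32, borderline), the predicted gene Gm20388 (fell by 0.37, borderline) and Ezr, which links the membrane to actin (fell by 0.30). At or below the median gene by their mean over all libraries, H19 and Igf2, neighboring imprinted genes, stood at 10.07, 10.10 and 10.15 and 9.47, 9.44 and 9.56, and at 5.97, 5.99 and 6.11 and 5.51, 5.52 and 5.56. They fell by 0.62 and 0.49, and the prostacyclin receptor Ptgir fell by 0.58. Clic6, a chloride channel family gene, stood at 9.68, 9.58 and 9.63 and 9.27, 9.24 and 9.27, fell by 0.37 and was near 6.6 in all WT libraries. H19 in ERT2 WT libraries averaged 6.78, more than 3 units lower. H19 and Igf2 changed less in WT cells by a called difference (-0.50, limma adjusted p 0.0176, and -0.50, limma adjusted p 2.40e-05). At WT values as low as those of H19 and Clic6, compression of weak signals could hide a fall. For H19 the adjusted p was 0.0504 without ERT2 KO replicate 3.

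The final comparison asked where the response of KO cells differed from that of WT cells, as the difference of the 2 changes, in which the groups share no library. The difference was called in 550 genes (4.53%). Of the 883 genes called higher in KO cells, 356 were also called higher and 12 called lower in WT cells. Of the other 515, the difference was called in 153, and not in the other 362, for which the backgrounds were not shown to differ. Of the 648 called lower, 213 were also called lower and 14 called higher in WT cells, and the difference was called in 88 of the other 421. Where a higher gene differed between backgrounds (235 genes), the change was larger in KO cells with the same sign in 111, smaller in 25 and of opposite sign in 99. For lower genes (116) the counts were 37, 8 and 71. Signs here are those of the estimates. A called WT change in the opposite direction was seen in only 12 higher and 14 lower genes. Most of the 99 and 71 genes therefore had no called change in WT cells.

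The difference of Mmp2 was 1.08 (SE 0.039, limma adjusted p 8.20e-09). Its WT values were low, at 6.77, 6.73 and 6.71 and 6.73, 6.73 and 6.75, where compression of weak signals could hide a change. Its mean over the 12 libraries lay above the median gene only through the KO libraries. Iqgap2, a scaffold of the cytoskeleton, stood at 8.56, 8.49 and 8.58 and 9.04, 9.01 and 9.0 in KO cells and rose by 0.47, while it fell in WT cells (-0.13), a difference of 0.60 (limma adjusted p 2.04e-06). Aplp2 (0.60), Dntt (0.47), Eps8 (0.46), Rab31 (0.45), Tcrg-C2 (0.67) and Tcrg-C1 (0.50) also rose further in KO cells. Below the median gene, Ccr2 and Cd28 rose by 0.38 and 0.44 in WT cells, and the differences of 1.76 (limma adjusted p 8.20e-09) and 1.52 (limma adjusted p 2.96e-09) were larger than that of Mmp2. In the other direction, Ets1, a lymphoid ETS factor, fell by 0.10 in KO cells (borderline) and rose by 0.27 in WT cells, a difference of -0.37 (limma adjusted p 6.74e-05). Ndst1, an enzyme of heparan sulfate synthesis, fell by 0.31 and rose by 0.38, a difference of -0.68 (limma adjusted p 0.000591). Dab2ip, a Ras GTPase-activating protein (-0.34), and Kmt2d, a histone methyltransferase (-0.39), fell in KO cells by 0.29 and 0.20 (the latter borderline) and differed from WT cells. Enpep (-0.47), Igfbp4 (-0.44), Ptpn22 (-0.39) and Lck (-0.48) rose less in KO than in WT cells. The predicted gene Gm5537 had the largest negative difference, -2.53, with a rise of 0.46 in KO and 2.99 in WT cells. It is annotated as a processed pseudogene, so reads of its parent gene could enter its value.

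**Figure D5:**
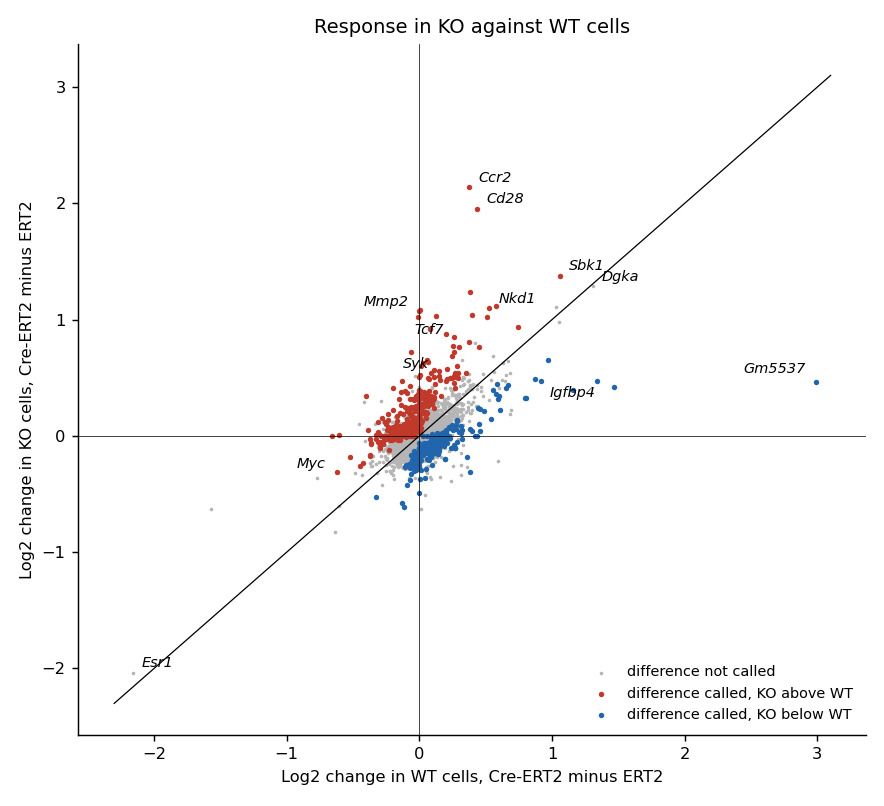
Change upon Cre activation in KO cells (vertical axis) against that in WT cells (horizontal axis), both as log2 differences, for the 12151 genes, with the 550 genes whose difference was called in color and the line of equal change drawn. Ccr2, Cd28 and Mmp2 lie far above the line, Gm5537 far below it, and Dgka and Esr1 close to it.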

How the data were processed

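Libraries were prepared by the submitters from 280 ng of RNA (stranded polyA kit, 10 PCR cycles). Per the study and its processing notes, paired-end reads were quantified with Salmon 1.4.0, aligned with STAR 2.7.6 to mm10 and analyzed with DESeq2 1.30.1. The deposited values are log2 expression per gene, normalized between libraries by the authors, and neither the transformation nor the gene filter is stated. No counts were given, so depth is unknown and no counting interval is possible.

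Groups were taken from sample titles (4 groups of 3). The values were used without a pseudocount or filter. Gene-wise linear models of the 12 libraries, parameterized by their 4 group means without covariates, were estimated in limma 3.58.1 (R 4.3.3, with the eBayes prior variance following mean expression). P values were adjusted over 12151 genes (Benjamini-Hochberg), and values under 0.05 made a call. The script was tested on simulated data. The groups and gene lists were chosen with earlier results of these data known. Named genes were Ikzf1, Ikzf3, Ctnnb1 and Myc, 15 genes each with the strongest called rise or fall, without overlap and above the median gene, 5 and 5 at or below it, the 10 largest differences from WT cells in each direction, and up to 6 called members of a list, of which 1 is not reported here. A gene named by its list alone may be weakly expressed. All members were described for the Wnt feedback, TCF/LEF, Ikaros and Myc network lists. Alternatives were other scalings, priors, thresholds, pseudocounts and left-out libraries.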

Additional observations from a re-analysis of the deposited data

Results flagged for a closer look

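The results given here are those in which the change upon Cre activation differed between KO and WT cells by the test of the difference itself (limma adjusted p under 0.05), among the genes named above. Values are the change in KO cells minus that in WT cells, on the log2 scale. Positive values mean a larger rise or smaller fall in KO cells, or a rise where WT cells fell.

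Rises that were larger in KO than in WT cells included the genes Ccr2 (1.76), Cd28 (1.52), the adaptor Grb7 (0.86) and Cd5 (0.51), the T cell receptor constant genes Tcrg-C2 (0.67) and Tcrg-C1 (0.50), and the proteases Mmp2 (1.08) and Mmp15 (0.32). Of the Wnt and TCF/LEF genes, Nkd1 (0.57), Tcf7 (0.58), Tnfrsf19 (0.27), Znrf3 (0.14), Aes (0.14) and Bambi (0.13) differed upward, and Axin2 (-0.15) and Tcf7l1 (-0.16) downward. In the signaling lists the upward differences were those of Phlda1 (0.54), Rasgrp1 (0.43), Syk (0.37), Prkcb (0.21), Etv5 (0.19) and Dusp5 (0.19). Cell cycle and damage genes with upward differences were Cdkn2a (0.61), Ccnd2 (0.47), Btg2 (0.24) and Gadd45a (0.31). Myc (0.31) and Srm (0.21) fell less in KO cells, as did Sdc4 (0.19). The sterol genes Nsdhl (0.24), Acat2 (0.21) and Dhcr7 (0.18) also differed upward. Others with upward differences were Iqgap2 (0.60), Aplp2 (0.60), Dntt (0.47), Eps8 (0.46), Rab31 (0.45), Abhd2 (0.43), Sbk1 (0.32), Irf4 (0.25), Cxcr4 (0.25), Lyz2 (0.24) and Spn (0.18).

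Downward differences among metabolic genes were those of Asns (-0.26), Cth (-0.26), Mthfd2 (-0.16), Slc1a5 (-0.34), Fasn (-0.32), Ero1l (-0.31) and Egln3 (-0.19). Genes that rose less in KO than in WT cells were Lck (-0.48), Enpep (-0.47), Igfbp4 (-0.44), Ptpn22 (-0.39), Megf10 (-0.32), Zap70 (-0.24), Klrd1 (-0.15), Cd93 (-0.23) and the pseudogene Gm5537 (-2.53). The remaining downward differences were those of Ndst1 (-0.68), Ets1 (-0.37), Kmt2d (-0.39), Dab2ip (-0.34), Clic6 (-0.38), Ebf1 (-0.19), H19 (-0.50), Igf2 (-0.50), Ptgir (-0.44), Ezr (-0.31), Syndig1l (-0.20) and Ikzf1 (-0.10). The WT values of H19, Clic6 and Mmp2 were low, where compression of weak signals could hide a change in WT cells.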

How the results depend on the processing

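The number of genes called in KO cells was 1531. It was 790 at an adjusted p under 0.01, 407 with an absolute change of at least 0.2 and 934 with the 6 KO libraries alone, and stayed between 1353 and 1579 under the other settings that kept all libraries, apart from 1214 with a mean of at least 8. The count for the difference from WT cells was 550, against 240, 288 and 337 at an adjusted p under 0.01, an absolute difference of at least 0.2 and a mean of at least 8, the last with fewer genes tested. Leaving out 1 library gave 1050 to 1458 and 383 to 595 genes. In the KO cells, deviations of libraries with the same replicate number correlated at 0.077 to 0.132, not all over 0.1, so the numbers were not taken as pairs, although each library correlated best with its own number. With the replicate block the counts were 1374 (815 higher, 559 lower) and 424. No change or difference of a named gene reversed with its call under any of the settings run. Borderline calls were 43 for changes in KO cells and 13 for differences, with adjusted p up to 0.158 and 0.116 without a library, while 7 changes and 8 differences became called. Besides those termed so above, the changes of Cd79a and Vpreb1 and the differences of Btg2, Dhcr7, Acat2, Dusp5, Ero1l, Fasn, Ikzf1 and Tcf7l1 were borderline.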

Other observations

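A few genes varied far more within a KO group than between the groups, and were chosen after their values were seen. Ddx41, an RNA helicase gene mutated in some myeloid neoplasms, stood at 7.50, 10.29 and 10.35 in ERT2 KO and 7.51, 9.53 and 10.24 in Cre-ERT2 KO libraries, so that replicate 1 lay low in both groups. The mitochondrial gene mt-Nd3 stood at 12.10, 11.58 and 11.77 and 11.80, 11.89 and 13.20, with Cre-ERT2 KO replicate 3 the highest. In the same library the predicted genes Gm28437 (12.73, 11.44 and 10.21 in the Cre-ERT2 KO libraries) and Gm10925 (15.22, 14.88 and 13.43) were the lowest of the group. None of these 4 genes was called in KO cells (limma adjusted p 0.868, 0.357, 0.684 and 0.219).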
